A study of Mus musculus with 9 samples.

Results

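The genes described here encode receptors, bridging proteins and relays by which phagocytes take up dying cells. They are the 10 genes Mertk, Axl, Gas6, Mfge8, Lrp1, Stab1, Timd4, Cd93, Calr and Elmo1, found by symbol among the 23234 symbols of the series, and 6 of them averaged 1 FPKM or more (fragments scaled by transcript length and by all mapped fragments) over the 9 libraries and were tested. RNA was sequenced from CD11b+ blood monocytes of C57BL/6 mice aged 8 months, all of which carried Yaa, the Y-linked translocation that duplicates Tlr7. About 100000 sorted cells went into each library. The Gr+CD11b+ subset had 4 libraries, 2 labelled Fcgr2-/-.Yaa (called null, replicates 1 and 2), 1 labelled CEBPaCre;Fcgr2 fl/fl.Yaa (CEBPaCre) and 1 labelled CD19Cre;Fcgr2 fl/fl.Yaa (CD19Cre). The Gr-CD11b+ subset had 5 libraries, 1 each of null, CEBPaCre and CD19Cre, 1 labelled CD11cCre;Fcgr2 fl/fl.Yaa (CD11cCre) and 1 labelled Fcgr2 fl/fl.Yaa (floxed, without Cre). Fcgr2 is the inhibitory receptor for IgG, listed as Fcgr2b. The CEBPaCre driver acts in myeloid cells and their progenitors, and the CD11cCre driver in dendritic cells and some monocytes. Gr+ cells of floxed or CD11cCre mice, and monocytes without Yaa, are not analysed here. Whether the libraries came from separate animals is not given, so each p measures the spread between libraries, which may be technical.

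A dying cell displays phosphatidylserine and other signals on its surface, and a phagocyte recognises them either directly or through a soluble bridge. Mertk and Axl are receptor tyrosine kinases that bind phosphatidylserine through soluble bridges, Gas6 for both and protein S for Mertk. Mfge8 links the same lipid to integrins, Timd4 and Stab1 bind it directly, and Lrp1 recognises calreticulin (Calr) on the dying cell. Cd93 is a C-type lectin-like membrane protein of myeloid and endothelial cells, once proposed as a receptor for C1q. Elmo1 acts with Dock proteins to switch on Rac, which drives the cup that engulfs the corpse. Mice that lack Mertk or Mfge8 clear dying cells poorly and can develop lupus-like autoimmunity, and loss of Fcgr2b with Yaa is a mouse model of lupus.

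Some facts of the libraries touch the values below. Read depth is unknown, because the deposited values are FPKM. Of 5384 genes averaging 10 FPKM or more, 162 were listed at 0 in at least 1 library, so a 0 in these files need not mean that no RNA was present. The number of symbols listed at 0 also differed between libraries, from 5123 to 10140. Both CD19Cre libraries stood apart, with Actb at 905 FPKM in Gr+ and 1160 FPKM in Gr-, against 2160 to 4648 FPKM in the other 7 libraries. Fcgr2b, the targeted gene, did not follow the labels: the libraries labelled null held 201, 106 and 145 FPKM and the floxed library 75.0 FPKM, so genotypes are named only as labelled. The subsets matched their markers, since 6 of 6 genes of classical monocytes were called higher in Gr+ and 6 of 6 genes of nonclassical monocytes were called higher in Gr-. Genes of neutrophils and their precursors also differed with the subset: 10 of 12 tested were called higher in Gr+, and the 14 measured genes summed to 825 to 2632 FPKM in Gr+ and 38.5 to 107 FPKM in Gr- libraries. NK cell genes summed to 1.24 to 4.47 FPKM in Gr+ and 24.5 to 465 FPKM in Gr-. In such bulk samples, fewer cells of a type and less RNA per cell cannot be told apart.

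Cd93, Mfge8 and Stab1 had their highest levels in Gr+ monocytes, with no library of Gr- reaching the lowest of Gr+. Of the 6 tested genes, Cd93 and Mfge8 were called higher in Gr+, and Axl, Lrp1, Calr and Elmo1 did not pass the test. A gene was called at an adjusted p (limma, Benjamini-Hochberg over all genes tested) at or under 0.05. Over all 10436 genes tested, 14.8% were called, 8.84% as higher in Gr+ and 5.95% as higher in Gr-, and 10.2% were higher in Gr+ without overlap. With the libraries scaled to equal sums, 47.0% of the called genes were higher in Gr+, against 59.8% with the values as deposited, and the same 2 of the 6 genes were called. The median log2 difference (Gr+ minus Gr-) was 0.71 over the 6 genes and 0.09 over all genes tested. Mertk, Stab1, Gas6 and Timd4 lay under the mean of 1 FPKM and are described by their values.

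**Figure D1:**
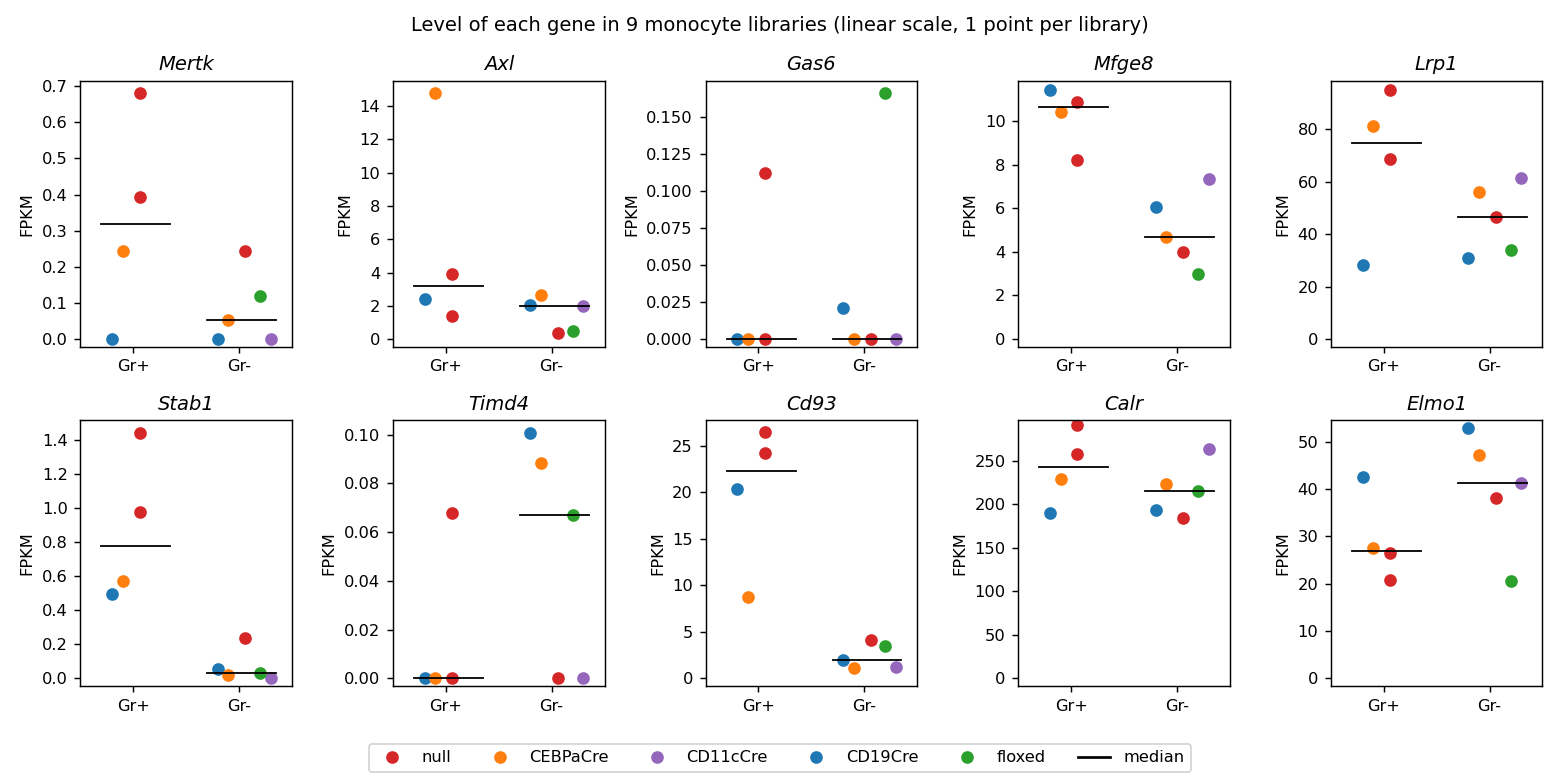
Level in FPKM (y axis, linear, own scale for each gene) of the 10 genes in the 4 Gr+ and 5 Gr- libraries (x axis), with 1 point per library coloured by the genotype on its label and a line at the median of each subset. For Cd93, Mfge8 and Stab1 the Gr+ points all lie above the Gr- points, and for Lrp1 both CD19Cre libraries and the floxed library lie at the bottom.

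Promoter sequences are shown for the 2 non-overlapping Gr+ genes found in the RefSeq promoter table (Mfge8 and Stab1) and for Lrp1. The levels of Lrp1 were lowest in both CD19Cre libraries and the floxed library, a difference by label that was not called (given below). The table (GRCm38.p6, while the FPKM values were made on mm9) held 9 of the 10 genes, all but Cd93. Each sequence runs 5′ to 3′ on the strand of the gene and covers the 250 bases before its annotated start. Capitals mark the GC box GGGCGG on either strand, a motif bound by Sp1-type factors.
Mfge8, chr7:79149061-79149310, minus strand: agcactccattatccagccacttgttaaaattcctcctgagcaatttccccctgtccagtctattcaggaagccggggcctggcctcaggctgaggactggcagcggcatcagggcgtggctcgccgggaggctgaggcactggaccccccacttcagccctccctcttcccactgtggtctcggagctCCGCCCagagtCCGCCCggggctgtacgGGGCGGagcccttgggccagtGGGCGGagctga
Stab1, chr14:31168642-31168891, minus strand: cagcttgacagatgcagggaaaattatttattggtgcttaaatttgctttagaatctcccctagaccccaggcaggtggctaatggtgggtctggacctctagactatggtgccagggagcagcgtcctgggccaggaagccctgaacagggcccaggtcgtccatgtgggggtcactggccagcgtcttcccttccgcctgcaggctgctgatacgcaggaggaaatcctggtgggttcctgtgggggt
Lrp1, chr10:127621149-127621398, minus strand: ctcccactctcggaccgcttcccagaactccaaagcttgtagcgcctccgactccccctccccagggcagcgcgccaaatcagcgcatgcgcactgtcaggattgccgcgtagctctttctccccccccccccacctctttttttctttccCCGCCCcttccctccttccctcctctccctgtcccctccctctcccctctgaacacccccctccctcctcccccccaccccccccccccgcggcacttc
The Mfge8 window held 4 GC boxes, the Lrp1 window 1 and the Stab1 window none, and their GC contents were 65.2%, 67.2% and 57.2%, against a median of 52.4% over 32851 promoters. A GC box was found in 32.7% of all those promoters and in 7 of the 9 genes. A gene was counted when any of its starts had a match, so promoters and genes are unlike units. Elmo1 had a start with GC boxes and another without. The PU.1-type core GAGGAAG was in 10.6% of all promoters and in 1 of the 9 genes (Axl), and the C/EBP-type motif TTNNGCAA was in 9.56% and in 0 of the 9. Both strands were searched, and no 2 matches overlapped. A match describes letters in the window and is not a measured binding site.

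By level, Calr stood first in 9 of 9 libraries, and Lrp1 and Elmo1 held the next places except in null Gr+ 2, where Cd93 exceeded Elmo1. Lrp1 exceeded Elmo1 in 7 libraries, and the order was the opposite in both CD19Cre libraries. Cd93 and Mfge8 changed places between libraries, with Cd93 higher in 5 of 9. Mfge8 exceeded Axl in 8 libraries, the exception being CEBPaCre Gr+. Mertk, Stab1, Gas6 and Timd4 stayed at or below 1.45 FPKM in every library, and Stab1 exceeded Axl in null Gr+ 1 (1.445 against 1.393 FPKM).

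The receptors of the TAM family (Tyro3, Axl, Mertk) were low in both subsets. Axl, the most abundant of them in 9 of 9 libraries, was present at 2.42 FPKM in CD19Cre, 14.8 FPKM in CEBPaCre, 1.39 FPKM in null 1 and 3.92 FPKM in null 2 of Gr+. In Gr- it was present at 1.99 FPKM in CD11cCre, 2.08 FPKM in CD19Cre, 2.62 FPKM in CEBPaCre, 0.490 FPKM in floxed and 0.378 FPKM in null. The CEBPaCre Gr+ library stood above all others, and the remaining libraries of the subsets overlapped. The log2 difference was 1.11 ± 0.51 (SE), with an adjusted p of 0.19, and without CEBPaCre Gr+ it was 0.56 with an adjusted p of 0.442. Within each genotype, Axl was higher in Gr+ in 4 of 4 pairs of libraries, by 1.11-fold to 4.36-fold on the scale of FPKM + 1, but the 2 null pairs share 1 Gr- library.

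Axl is known to be induced by interferon, and 12 interferon response genes (Isg15, Irf7, Mx1 and others), chosen after the values of Axl were seen, are given beside it. Their mean on the log2(FPKM + 1) scale was 5.32 in CEBPaCre Gr+, 3.89 in CD19Cre Gr+, 3.83 in null Gr+ 2 and 2.79 in null Gr+ 1. In Gr- it ran from 1.86 in null to 3.23 in CEBPaCre. The library with the most Axl RNA was thus also the one with the highest mean of these genes, and the null Gr- library had the lowest of both. Between these ends the orders differed. CD19Cre Gr- had a mean of 2.52 with Axl at 2.08 FPKM, while floxed Gr- had 2.69 with 0.490 FPKM and null Gr+ 1 had 2.79 with 1.39 FPKM. Of the 12 genes, Oasl2 and Oas2 were called higher in Gr+ (4.13-fold and 3.17-fold, adjusted p = 0.0364 and 0.0413), and the other 10 did not pass. The part of the interferon genes in the level of Axl was not tested.

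**Figure D2:**
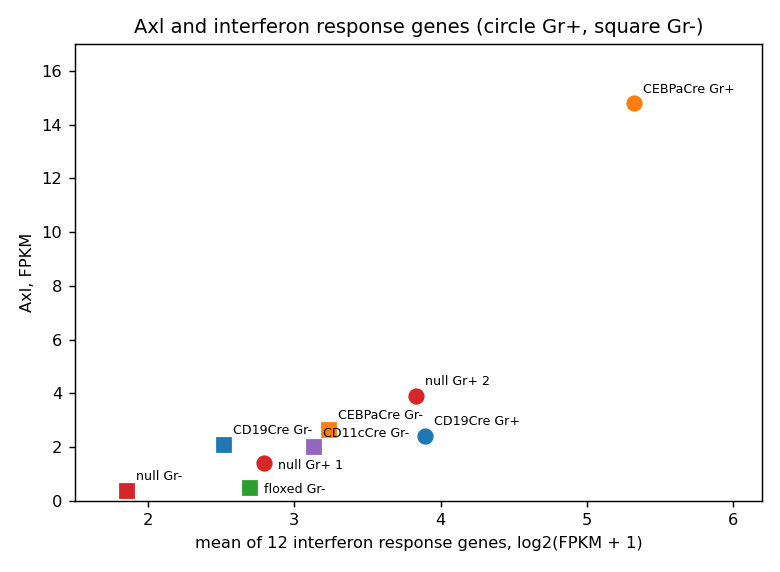
Level of Axl in FPKM (y axis) against the mean of 12 interferon response genes on the log2(FPKM + 1) scale (x axis), 1 symbol per library, circles for Gr+ and squares for Gr-, coloured by genotype. The CEBPaCre Gr+ library lies alone at 14.8 FPKM and 5.32, and the other 8 libraries lie at or below 3.92 FPKM.

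Mertk, the TAM receptor best known in macrophages that ingest dying cells, was listed at 0 in CD19Cre Gr+ and at 0.243, 0.392 and 0.68 FPKM in CEBPaCre, null 1 and null 2 of Gr+. In Gr- it was listed at 0 in CD11cCre and CD19Cre and at 0.0521, 0.1185 and 0.243 FPKM in CEBPaCre, floxed and null. The subsets overlapped, and both CD19Cre libraries were at 0. In the fit without a filter on the mean, the log2 difference was 0.28 with an adjusted p of 0.304. Tyro3, the third receptor of the family, was listed at 0 in 7 of 9 libraries and reached 0.1135 FPKM in CD11cCre Gr-.

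The soluble bridges gave a mixed picture. Gas6, the ligand that binds all TAM receptors, was listed at 0 in 6 libraries and held 0.112 FPKM in null Gr+ 2, 0.0208 FPKM in CD19Cre Gr- and 0.166 FPKM in floxed Gr-. The gene for the other TAM ligand, Pros1 (protein S), was higher than Gas6 in 9 of 9 libraries, at 55.7 ± 26.7 FPKM (SD, n = 4) in Gr+ and 29.0 ± 13.6 FPKM (n = 5) in Gr-. The subsets overlapped for Pros1 (log2 difference 0.94 ± 0.37, adjusted p = 0.125).

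Mfge8, which links phosphatidylserine to integrins of the phagocyte, was present at 11.4 FPKM in CD19Cre, 10.4 FPKM in CEBPaCre, 10.9 FPKM in null 1 and 8.22 FPKM in null 2 of Gr+. Its Gr- values were 7.35 FPKM in CD11cCre, 6.06 FPKM in CD19Cre, 4.66 FPKM in CEBPaCre, 2.996 FPKM in floxed and 3.99 FPKM in null. All Gr+ libraries lay above all Gr- libraries, with the closest values 8.22 and 7.35 FPKM. The log2 difference was 0.94 ± 0.23, a 1.92-fold difference, with an adjusted p of 0.0177. The call was lost at an adjusted p of 0.0517 without CEBPaCre Gr+ and at 0.0511 without null Gr+ 1, where the difference was 0.93 and 0.91. Within genotypes Mfge8 was higher in Gr+ in 4 of 4 pairs, by 1.76-fold to 2.38-fold on the scale of FPKM + 1, but the null pairs share a Gr- library. The integrin genes through which Mfge8 is known to act showed no called rise in Gr+: Itgav held 11.3 ± 1.66 FPKM in Gr+ and 21.4 ± 7.22 FPKM in Gr- (log2 difference -0.81, adjusted p = 0.0528), Itgb5 did not pass the test, and Itgb3 was called 4.83-fold higher in Gr- (adjusted p = 0.00198).

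The receptors of the scavenger type differed widely in level. Stab1, stabilin-1, was listed at 0.497 FPKM in CD19Cre, 0.575 FPKM in CEBPaCre, 1.45 FPKM in null 1 and 0.981 FPKM in null 2 of Gr+. In Gr- it was listed at 0 in CD11cCre and at 0.0574, 0.0224, 0.034 and 0.235 FPKM in CD19Cre, CEBPaCre, floxed and null. The subsets did not overlap, and the highest Gr- library was null. Stab1 was left out of the test by the filter, and without a filter its log2 difference of 0.79 passed (adjusted p = 0.00778). Stab1 is also made by sinusoidal endothelium and tissue macrophages, whose markers are given for that reason. The 9 endothelial genes summed to 0.274 to 1.62 FPKM in Gr+ and 1.71 to 3.02 FPKM in Gr-, with Robo4 at 0 in every library. In Gr- most of that sum was Vwf (0.120 to 0.626 FPKM in Gr+ and 1.29 to 2.76 FPKM in Gr-), while Cdh5 and Cldn5 did not exceed 0.106 and 0.332 FPKM in any library. The part of endothelial cells in the level of Stab1 was not tested. Of the 11 genes of resident macrophages, Adgre1 (listed as Emr1) made up most of a sum of 72.8 to 110.5 FPKM in Gr+ and 76.8 to 159 FPKM in Gr-. Of these 11 genes, 2 (null Gr+ 2) to 7 (null Gr+ 1) were at 0 in a Gr+ library, Clec4f and Gata6 in every Gr+ library. In Gr- libraries, 1 (floxed and null) to 6 (CD19Cre) were at 0. Cd163 held 0.249 to 1.04 FPKM in Gr+ and 0.410 to 0.784 FPKM in Gr-. Siglec1 was called 2.33-fold higher in Gr+ (adjusted p = 0.0275). The part of macrophages in the level of Stab1 was not tested.

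Timd4, the phosphatidylserine receptor of resident macrophages, was listed at 0 in 5 of 9 libraries, 3 of Gr+ and 2 of Gr-, and did not exceed 0.101 FPKM. Its values above 0 were 0.068 FPKM in null Gr+ 2, 0.1008 FPKM in CD19Cre Gr-, 0.0885 FPKM in CEBPaCre Gr- and 0.0671 FPKM in floxed Gr-. Stab2, the paralogue of Stab1, was likewise listed at 0 in 5 libraries. The absence of Timd4 in a library could not be separated from a low level, since depth is unknown.

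Lrp1, the large endocytic receptor that recognises calreticulin and other ligands, was the most abundant receptor among the 10 genes. In Gr+ it was present at 28.15 FPKM in CD19Cre, 81.2 FPKM in CEBPaCre, 95.0 FPKM in null 1 and 68.6 FPKM in null 2. In Gr- it was present at 61.2 FPKM in CD11cCre, 30.9 FPKM in CD19Cre, 56.0 FPKM in CEBPaCre, 33.9 FPKM in floxed and 46.6 FPKM in null. The low Gr+ library was CD19Cre, and the other 3 Gr+ libraries lay above all Gr- libraries. The log2 difference between subsets was 0.49 ± 0.35 with an adjusted p of 0.425, and it was 0.73 with an adjusted p of 0.065 without both CD19Cre libraries. Lrp1 was higher in Gr+ in 3 of 4 pairs of the same genotype, of which the null pairs share a Gr- library. The ratio in the CD19Cre pair was 0.9125 on the scale of FPKM + 1.

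Cd93 showed the largest subset difference of the 6 tested genes. Its Gr+ values were 20.35 FPKM in CD19Cre, 8.74 FPKM in CEBPaCre, 26.5 FPKM in null 1 and 24.3 FPKM in null 2. In Gr- it held 1.20 FPKM in CD11cCre, 1.95 FPKM in CD19Cre, 1.08 FPKM in CEBPaCre, 3.51 FPKM in floxed and 4.08 FPKM in null. Within each subset the CEBPaCre library was the lowest, and even that Gr+ library lay above the highest Gr- value. The log2 difference was 2.63 ± 0.36, a 6.196-fold difference with an adjusted p of 0.000626. Across 20 alternative settings the call held in all, with log2 differences from 2.47 to 3.10 and adjusted p from 0.000241 to 0.00522. The gain was 4.68-fold to 7.25-fold within genotypes, in 4 of 4 pairs, on the scale of FPKM + 1, and the null pairs share a Gr- library.

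Cd93 is also carried by early haematopoietic progenitors, and some precursor genes were also higher in Gr+ than in Gr-. The 6 progenitor genes summed to 8.86 to 31.7 FPKM in Gr+ and 0.887 to 2.23 FPKM in Gr-, but nearly all of the Gr+ sum was Spink2 (8.22 to 31.3 FPKM). Kit was between 0 and 0.182 FPKM in Gr+ and Mecom was at 0 in every library. Of the granule genes of neutrophil precursors, Elane held 4.87 to 18.0 FPKM in Gr+ and at most 0.1422 FPKM in Gr-. Within Gr+, both null libraries had the most Cd93 and the most Spink2 (31.3 and 17.4 FPKM, against 10.2 FPKM in CEBPaCre and 8.22 FPKM in CD19Cre). Among neutrophil genes, Lcn2 had the order of Gr+ libraries of Cd93 (330.5, 92.3, 69.2 and 58.5 FPKM in null 1, null 2, CD19Cre and CEBPaCre). Most of the others did not. Elane, Ngp, Camp and Ltf were highest in CD19Cre and lowest in null 2 (Ngp at 210 and 9.80 FPKM, Camp at 38.9 and 6.11 FPKM). S100a8, S100a9, Mmp8 and Prtn3 had still other orders. The part of these cells in the levels of Cd93, Mfge8 and Stab1 was not tested.

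Calr, an endoplasmic reticulum chaperone that serves as a signal for uptake when it reaches the cell surface, was high throughout. In Gr+ it was present at 190 FPKM in CD19Cre, 229 FPKM in CEBPaCre, 258 FPKM in null 1 and 291 FPKM in null 2. In Gr- it was present at 263 FPKM in CD11cCre, 193 FPKM in CD19Cre, 223 FPKM in CEBPaCre, 215 FPKM in floxed and 184 FPKM in null. The subsets overlapped, and the log2 difference was 0.16 ± 0.20 (adjusted p = 0.677), at -0.002 once the libraries were scaled to equal sums and -0.05 after quantile normalization. RNA levels do not show how much calreticulin lies on the cell surface.

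Elmo1, the partner of Dock proteins in the activation of Rac, was present at 42.5 FPKM in CD19Cre, 27.5 FPKM in CEBPaCre, 26.5 FPKM in null 1 and 20.7 FPKM in null 2 of Gr+. Its Gr- values were 41.3 FPKM in CD11cCre, 52.9 FPKM in CD19Cre, 47.1 FPKM in CEBPaCre, 20.5 FPKM in floxed and 38.0 FPKM in null. The CD19Cre library was the highest of each subset, and the floxed library lay at the level of the lowest Gr+ library. Over all libraries the log2 difference was -0.42 ± 0.29 with an adjusted p of 0.409. Within genotypes Elmo1 was lower in Gr+ in 4 of 4 pairs, at 0.556-fold to 0.808-fold on the scale of FPKM + 1, but the null pairs share a Gr- library. With genotype as a replicate block the log2 difference was -0.59 with an adjusted p of 0.032. Its paralogue Elmo2 was more abundant in 9 of 9 libraries, at 83.1 ± 26.0 FPKM in Gr+ and 93.9 ± 37.6 FPKM in Gr-, and did not differ beyond its spread (adjusted p = 0.851).

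**Figure D3:**
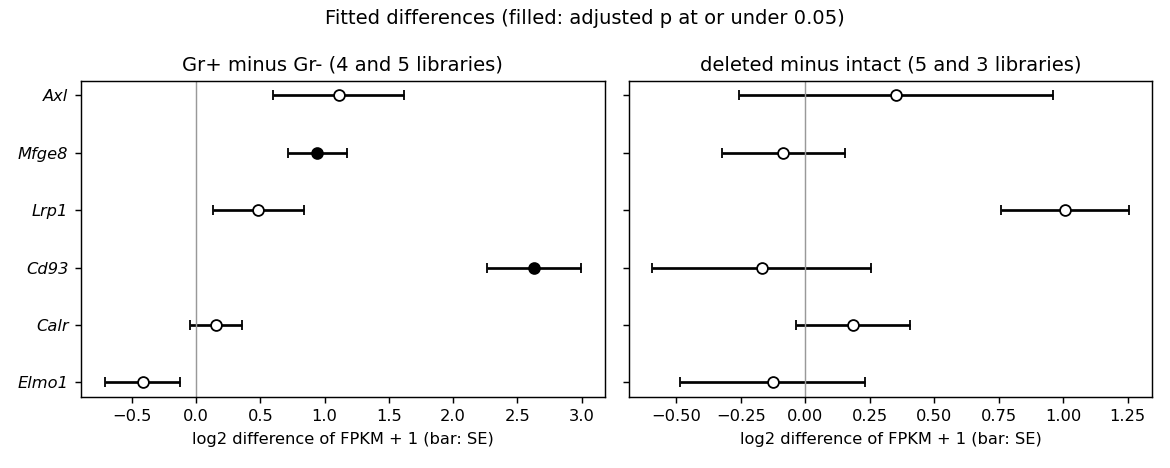
Log2 difference of FPKM + 1 (x axis, bars show the SE) for the 6 tested genes (y axis), Gr+ minus Gr- at left and deleted minus intact labels at right, with filled points where the adjusted p was at or under 0.05. Cd93 and Mfge8 are filled at left, at 2.63 and 0.94, and no point is filled at right, where Lrp1 lies farthest from 0 at 1.01.

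Other genes of the same process, 112 in 8 lists, showed how the 10 genes sat in their pathway. Of these, 88 were tested, 15 were called higher in Gr+, 10 were called higher in Gr- and 63 did not pass, beside the 8.84% and 5.95% of all genes given above. Their median log2 difference was 0.21, beside 0.09 over all genes. Leaving out 1 library at a time moved the count higher in Gr+ to as few as 7 without CEBPaCre Gr+, 8 without null Gr+ 1 and 8 without null Gr-. Scaling the libraries to equal sums gave 14 higher in Gr+ and 16 higher in Gr-.

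Among 7 tested genes for signals that attract phagocytes, 2 were called higher in Gr+, 1 higher in Gr-, and 4 did not pass. Anxa1, annexin A1, averaged 622 ± 151 FPKM (SD, n = 4) in Gr+ and 171 ± 77.2 FPKM (n = 5) in Gr- (3.81-fold, adjusted p = 0.00168). P2ry12, a receptor for nucleotides, was 3.61-fold higher in Gr+ (7.86 against 1.46 FPKM). S1pr5, a receptor for sphingosine-1-phosphate that nonclassical monocytes need to leave the bone marrow, was 10.6-fold higher in Gr- (165 against 14.4 FPKM). Among 7 tested genes for bridges and other proteins that bind dying cells, besides Mfge8 and Gas6, 3 were called higher in Gr+ and none higher in Gr-. Thbs1, thrombospondin-1, was 5.82-fold higher in Gr+ (adjusted p = 0.00245), Lgals3, galectin-3, 2.18-fold (adjusted p = 0.0368) and Anxa5, annexin A5, 2.21-fold (adjusted p = 0.0478). Lgals3 and Anxa5 overlapped between the subsets, and the C1q genes C1qa, C1qb and C1qc did not pass.

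Of 16 tested genes for other receptors, 3 were called in each direction. Trem2, a lipid receptor of myeloid cells, averaged 51.0 ± 6.68 FPKM in Gr+ and 5.27 ± 2.78 FPKM in Gr- (8.78-fold, adjusted p = 2.86e-05). Msr1, the class A scavenger receptor, was 9.76-fold higher in Gr+ (79.5 against 6.73 FPKM), and Scarf1, a receptor for C1q-coated cells, 1.67-fold. Cd36, which binds oxidised lipid and thrombospondin, averaged 128 ± 27.5 FPKM in Gr- and 5.40 ± 1.93 FPKM in Gr+ (20.4-fold, adjusted p = 6.65e-06), though it also served as a marker of nonclassical monocytes here. Havcr2 (Tim-3), of the family of Timd4, was 3.81-fold higher in Gr- (35.2 against 8.22 FPKM), and Itgb3 is given above. Lrp8, of the family of Lrp1, lay under the filter.

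Downstream of the receptors, the shares called were near the 14.8% of all genes tested. In the engulfment list 2 of 15 tested genes were called, and the 13 that did not pass had Rac1 (adjusted p = 0.389) and Dock2 (adjusted p = 0.445) among them. Dock5 was 2.38-fold higher in Gr- (20.8 against 7.82 FPKM), and Trio, an exchange factor for Rac and RhoG, was 2.33-fold higher in Gr+ (3.79 against 0.970 FPKM). For digestion of the corpse and its lipid, 3 of 22 tested genes were called. Pparg, the lipid-sensing nuclear receptor, averaged 113 ± 33.9 FPKM in Gr- and 7.12 ± 1.61 FPKM in Gr+ (13.7-fold), Nr1h3, an oxysterol-sensing partner of RXR, held 33.5 FPKM in Gr- against 8.27 FPKM in Gr+ (3.64-fold), and Lamp2, a lysosomal membrane protein, was 1.99-fold higher in Gr+.

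Of 8 genes for signals that restrain uptake and their receptors, 3 were called in each direction. Pecam1 (15.4-fold), Siglece (2.87-fold) and Siglecg (2.00-fold) were higher in Gr-, and Cd24a (3.23-fold), Lilrb3 (2.03-fold) and Lilrb4 (1.90-fold) were higher in Gr+. Cd47, the main such signal, and its receptor Sirpa did not pass (adjusted p = 0.322 and 0.852). Of 3 tested genes for the shedding of receptors, Timp2, an inhibitor of metalloproteases, was 2.14-fold higher in Gr+, while Adam17, the protease that cleaves Mertk, held 51.4 ± 18.9 FPKM in Gr+ and 43.2 ± 16.0 FPKM in Gr- (adjusted p = 0.645). Of 10 chaperones that share the endoplasmic reticulum with Calr, 1 was called: Canx, calnexin, was 1.63-fold higher in Gr+ (84.8 against 51.9 FPKM).

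**Figure D4:**
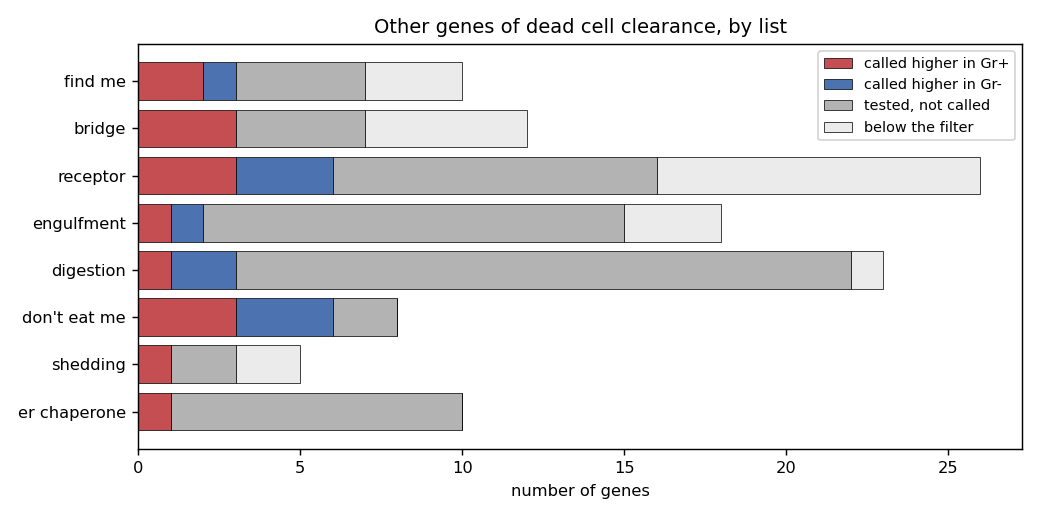
Number of genes (x axis) in each of 8 lists of other genes of dead cell clearance (y axis), divided into those called higher in Gr+, called higher in Gr-, tested and not called, and below the filter of a mean of 1 FPKM. The bridge list (bridges and other proteins that bind dying cells) has 3 genes called higher in Gr+ and none higher in Gr-. The engulfment list has 2 of 15 tested genes called, near the 14.8% of all genes tested.

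The second comparison asked whether labels that remove Fcgr2 in myeloid cells went with other levels of these genes. Libraries labelled null or CEBPaCre (deleted, n = 5) were set against those labelled CD19Cre or floxed (intact, n = 3), with the subset as a covariate and CD11cCre left out. None of the 10429 genes tested was called by limma (0%), with 1470 (14.1%) at an unadjusted p under 0.05, and none of the 6 genes was called. Lrp1 averaged 69.5 ± 19.3 FPKM (SD, n = 5) in deleted and 31.0 ± 2.89 FPKM (n = 3) in intact libraries. The lowest deleted library (null Gr-, 46.6 FPKM) lay above the highest intact one (floxed Gr-, 33.9 FPKM), a separation in this direction that 4.34% of all genes tested showed. The log2 difference (deleted minus intact) was 1.01 ± 0.25, a 2.01-fold difference, with an unadjusted p of 0.00281 and an adjusted p of 0.306. It passed with library weights (1.17, adjusted p = 0.0418) and without floxed Gr- (1.12, adjusted p = 0.0141). Without floxed Gr-, however, 2551 genes were called in all, and the intact group was then CD19Cre alone. Without both CD19Cre libraries the difference was 0.58 (adjusted p = 0.517), with floxed as the only intact library. Since 2 of the 3 intact libraries are the CD19Cre libraries that stood apart, the label and that property cannot be told apart. Itgam, which encodes the sort marker CD11b, separated the libraries in the same way, at 61.7, 68.3 and 66.1 FPKM in CD19Cre Gr+, CD19Cre Gr- and floxed Gr-, against 136 to 186 FPKM in the other 6 libraries, and its part in the difference of Lrp1 was not tested.

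The other 5 tested genes had log2 differences (deleted minus intact) of 0.35 for Axl, 0.18 for Calr, -0.17 for Cd93, -0.13 for Elmo1 and -0.09 for Mfge8, with adjusted p from 0.691 to 0.87. The median was 0.05 over the 6 genes and -0.04 over all genes tested. Of these 5, only Axl kept its sign over all alternatives run for it, and none passed under any. Of the 88 tested genes in the other lists, 0 were called and the median was -0.08. Among single libraries, Mertk was above 0 in 5 of 5 deleted libraries (0.0521 to 0.68 FPKM) and in 1 of 3 intact ones (floxed, 0.1185 FPKM), without a test. The intact libraries at 0 were those of CD19Cre, and how many of all genes show this pattern was not counted. The number of symbols listed at 0 also differed between libraries, as given above.

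By single genotype, given as values without a test (1 library per subset, or 2 for null Gr+), the CEBPaCre libraries held the most Axl and the least Cd93 in each subset. The CD19Cre libraries held the most Elmo1 and the least Lrp1 in each. The null libraries of Gr+ held the most Cd93, Stab1, Mertk and Calr, and the null library of Gr- the most Cd93, Stab1 and Mertk but the least Axl and Calr of that subset. CD11cCre Gr- held the most Mfge8, Lrp1 and Calr of the Gr- libraries, and floxed Gr- the least Mfge8 and Elmo1.

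Whether the subset difference itself varied with the labels was tested as an interaction over the same 8 libraries, where CD19Cre is the only intact Gr+ library and is assumed to vary like the others. Of 10429 genes, 9 (0.0863%) were called, none of them among the 6 genes, whose lowest adjusted p was 0.882. That lowest value was 0.0875 without CD19Cre Gr-.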

How the data were processed

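RNA was measured in 9 libraries of sorted blood monocytes. Each deposited file holds 1 library with 1 FPKM value per gene symbol. The FPKM values were made by the authors with TopHat2 2.0.8 and Cufflinks 2.1.1 on mm9, per the submitters' processing notes; the gene annotation and settings are not given in the sources used here. All value columns were used. Reads per library are unknown, so no counting interval is given, and FPKM from Cufflinks can be 0 where an estimate failed.

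Symbols were looked up by name, older names included. Of all list genes, Ly6g had no match. Differences were fitted with limma 3.58.1 (R 4.3.3, statmod 1.5.0; lmFit and eBayes with a trend) on log2(FPKM + 1). Genes entered if they averaged 1 FPKM or more over 9 libraries and were above 0 in 2 or more of those fitted, and p-values were adjusted by the Benjamini-Hochberg method over all genes fitted. Folds are ratios of geometric means of FPKM + 1 and understate the change of low genes. The scripts were tested on simulated data. The subset fit had no covariate. The deletion fit had the subset as a covariate.

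The members, the gene lists and the tests were chosen with earlier results of these data known. The interferon list and the promoter motifs were added after values were seen. All 10 members are named. Of each other list, up to 3 called genes per direction with the smallest p, averaging 5 FPKM or more in the subset where they were higher, are named, and a count of 5 or fewer may be named in full. Scarf1, Trio, Siglecg and the uncalled genes named beside the members were named after their values were seen. Alternatives were other pseudocounts (0.1 and 0.5), filters, scalings and weights, a genotype block, and leaving out libraries.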

Additional observations from a re-analysis of the deposited data

Results flagged for a closer look

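Within each subset, the highest or lowest library of each of the 10 genes was checked for a gap to its neighbour that was large against the range of the subset (Dixon's criterion). Of 20 groups checked, 4 had such a library. The usual rate of about 1 flag in 20 groups assumes normally distributed values, so it cannot be set against groups with many values at 0. Where 3 of 4 libraries are at 0, any value above 0 in the other is flagged. For Gas6, the null Gr+ 2 library (0.1122 FPKM) stood apart from 3 libraries listed at 0, and the floxed Gr- library (0.1662 FPKM) stood apart from the other 4, which held at most 0.0208 FPKM. For Stab1, the null Gr- library (0.2352 FPKM) lay above the other 4, which held at most 0.0574 FPKM. For Timd4, the null Gr+ 2 library (0.06801 FPKM) was the only Gr+ library above 0. The null Gr+ 2 library was also the only Gr+ library above 0 for Ptx3, Apcs, Tub and Gulp1, while for Elmo3 it was the only one at 0. Symbols at 0 ran from 5123 to 10140 per library, so such flags need not be particular to these genes. All 4 values lie under 1 FPKM, and their cause was not tested.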

How the results depend on the processing

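Of the recomputed values, 326 were labelled the same, 23 moved, 18 changed sign, 5 passed the threshold that had not and 2 no longer passed. For fitted differences, the same meant an unchanged sign and side of the threshold, and for the lowest adjusted p an unchanged side. Counts were the same within a set ratio to the main count, and moved beyond it. Thus 1063 to 2020 called genes were labelled the same as 1544. Cd93 was called in 20 of 20 alternatives and Mfge8 in 18 of 20; leaving out 1 library gave 1 to 2 called members. The count of genes called between subsets was 1544, and became 2376 with library weights and 2712 with genotype as a replicate block (null, CEBPaCre and CD19Cre carry the difference; shared genotype does not show a shared animal). The other clearance genes higher in Gr+ (15) became 25 under the block and 7 to 18 when 1 library was left out, and those higher in Gr- (10) became 16 under the block and 16 with equal sums. Elmo1 was called under the block and with library weights (-0.69, adjusted p = 0.0317). Scaling to equal sums shifted the median subset difference of all genes by -0.136, and the share of calls higher in Gr+ was 47.0% against 59.8% as deposited; the subset difference of Calr became -0.002, and -0.049 after quantile normalization. The deletion count of 0 became 673 with library weights, 5 without both CD19Cre libraries (chosen after seeing the data), 12 in Gr- libraries alone, and 0 to 2551 when 1 library was left out. Deletion differences that turned sign were those of Mfge8 (0.011 with equal sums, 0.056 with CD11cCre counted as deleted, 0.002 in Gr- alone, 0.412 without both CD19Cre libraries, -0.300 to 0.086 leaving out 1 library), Elmo1 (0.033 after quantile normalization, 0.347 in Gr- alone, 1.009 without both CD19Cre libraries, -0.550 to 0.347 leaving out 1 library), Calr (-0.006 in Gr- alone, -0.084 without both CD19Cre libraries, -0.006 to 0.293 leaving out 1 library) and Cd93 (-0.473 to 0.132 leaving out 1 library); none of these was called. The interaction count of 9 became 5 with equal sums, 5 with equal medians, 5 after quantile normalization and 7 to 18 when 1 library was left out; without CD19Cre Gr+ it could not be fitted. The cause of these changes was not tested, and depth, which is unknown, limits what can be said of Mertk, Gas6, Stab1 and Timd4.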
